A study of Mus musculus with 2 samples.

Results

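The genes described are 10 members of the epidermal growth factor (EGF) family and its receptors, taken by symbol: the ligand genes Egf, Tgfa, Areg, Ereg, Btc and Hbegf, and the receptor genes Egfr, Erbb2, Erbb3 and Erbb4. All 10 were present among the 18724 gene rows. The sequenced RNA came from luminal cells of normal mouse prostate, sorted by flow cytometry on a GFP label fused to histone 2B, which is diluted as cells divide. The groups were label-retaining cells (GFP-positive) and non-retaining cells (GFP-negative), both freshly sorted from mice of 18 weeks. Each group was 1 library, so no replicate check and no test between groups was possible. The mouse strain, the promoter that drove the GFP transgene, the surface markers of the sort and the number of pooled mice are unstated in the labels.

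EGF family ligands are made as membrane-anchored precursors. They are released by ADAM proteases and bind receptor tyrosine kinases of the ERBB family, which then pair with each other. EGF, TGF-alpha and amphiregulin (Areg) bind EGFR, while betacellulin (Btc), heparin-binding EGF (Hbegf) and epiregulin (Ereg) bind both EGFR and ERBB4. ERBB2 has no known ligand of its own and serves as a partner. ERBB3 has a weak kinase and binds neuregulins, and when paired with a partner it passes the signal to PI3-kinase. In stratified and glandular epithelia EGFR is typical of basal cells, and its signal runs through the RAS and ERK kinases.

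The libraries held 50689229 (label-retaining) and 48334265 (non-retaining) reads in the rows of the table. Values below are the authors' normalised counts, that is, reads divided by the library's size factor (1.002 in label-retaining cells, 1.099 in non-retaining cells). A gene was called higher or lower when it differed at least 2-fold and the 95% counting interval of its log2 ratio (label-retaining over non-retaining) left out equality. These intervals cover counting error only. Over all 17183 measured genes (a mean of at least 10 normalised counts), 14.5% were called higher and 19.4% lower. With scaling on Krt8 and Krt18 these shares were 5.23% and 41.3%, and with scaling on Epcam and Cdh1 23.9% and 14.2%. Of 13 luminal markers 5 were called higher and 0 lower as deposited, 4 and 3 on Krt8 and Krt18, and 10 and 0 on Epcam and Cdh1, genes that are themselves in the list. Krt8, a luminal keratin, had 147910 normalised counts in label-retaining and 81228 in non-retaining cells. Luminal markers made up 1.82% of the reads in label-retaining cells and 1.09% in non-retaining cells. All 12 basal markers were lower, with a median log2 ratio of -4.39, and Krt5, a basal keratin, had 962 reads in the label-retaining library and 28725 in the non-retaining one. Basal markers made up 0.0865% of the reads in label-retaining cells and 1.12% in non-retaining cells. Leukocyte markers were lower in 9 of 14 and higher in 2, at 0.0022% of the reads in label-retaining cells and 0.037% in non-retaining cells, and smooth muscle markers were lower in 8 of 8. Fibroblast markers were lower in 3 and higher in 2 of 8, and endothelial markers lower in 5 and higher in 0 of 8. Both sorts were labelled luminal, and both held RNA of basal markers.

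By this rule the family split. Egf, Btc and Erbb3 were higher in the label-retaining library, Tgfa, Ereg, Hbegf and Egfr were lower, and Areg, Erbb2 and Erbb4 were neither. That is 3 of 10 higher, beside 14.5% of all measured genes, and 4 of 10 lower, beside 19.4%, so calls were common in this pair of libraries. Under the other scalings 2 or 3 members were higher and 3 or 4 lower. Over all measured genes, the share of calls that were higher ones was 42.7% as deposited, 32.4% when scaled on total reads, 11.2% on Krt8 and Krt18, and 62.7% on Epcam and Cdh1. These 3 scalings moved every log2 ratio by -0.20, -0.78 and 0.36 in that order. The median log2 ratio was 0.26 (-0.52 on Krt8 and Krt18) over the 10 members, all of them measured, and -0.0052 over all measured genes. The members ran from -3.19 for Ereg to 2.53 for Btc. In these bulk samples, fewer cells of a type and less RNA per cell cannot be told apart.

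**Figure D1:**
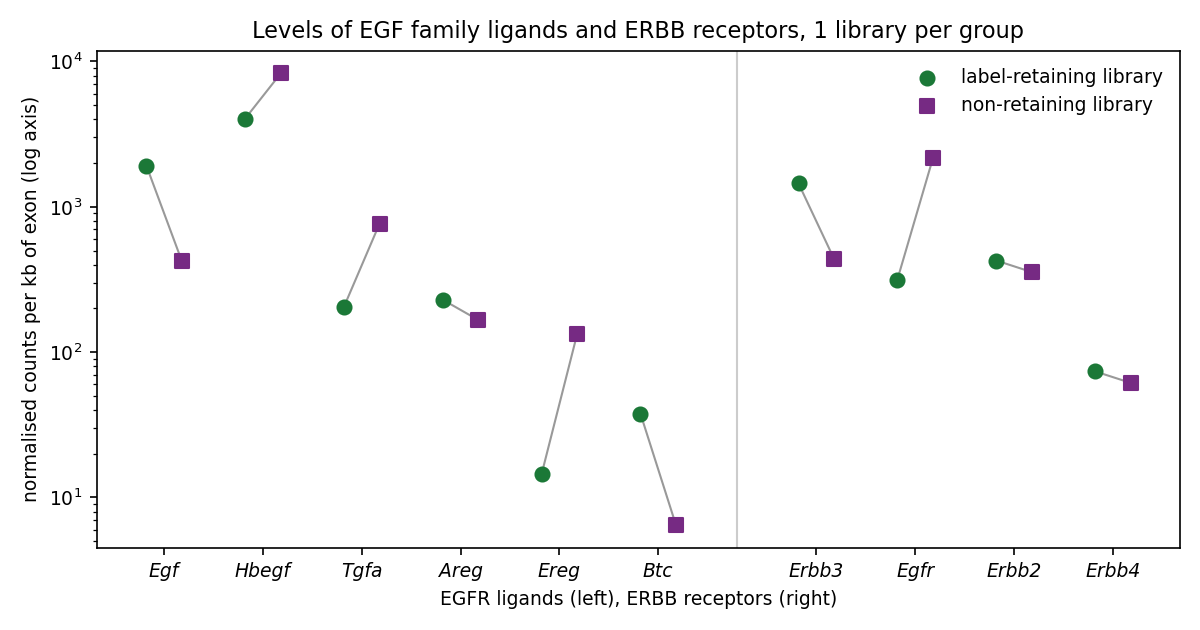
Levels of the 10 genes in normalised counts per kb of exon (vertical log axis). Green circles are the label-retaining library, purple squares the non-retaining library, and a grey line joins the values of 1 gene. Egf and Erbb3 stand higher in the label-retaining library, Tgfa, Ereg and Egfr higher in the non-retaining one, and Hbegf is the highest of the 10 in both.

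Upstream sequences from the RefSeq promoter table (GRCm38.p6) are shown for 4 of the genes with a call, to show their starts and base composition. Of the 10 members 7 matched that table. Ereg, Erbb3 and Hbegf were not matched. Each line gives the 250 bases before the RefSeq start, 5′ to 3′ on the gene's strand. The windows are chr3:129755323-129755572 (minus strand, Egf), chr5:91402995-91403244 (minus, Btc), chr6:86194972-86195221 (plus, Tgfa) and chr11:16751953-16752202 (plus, Egfr). Capitals mark matches on either strand to 6 short motifs, none of which overlapped another in these windows: the TATA box spelled TATAAA, the GC box spelled GGGCGG, an E-box spelled CACCTG, the CCAAT box, the AP-1 motif spelled TGANTCA, and a half-site of steroid receptors spelled AGAACA.
Egf: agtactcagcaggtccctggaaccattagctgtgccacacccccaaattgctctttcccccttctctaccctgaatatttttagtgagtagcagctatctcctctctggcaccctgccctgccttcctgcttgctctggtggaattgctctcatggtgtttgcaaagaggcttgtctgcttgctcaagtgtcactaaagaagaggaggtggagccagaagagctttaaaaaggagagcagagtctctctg
Btc: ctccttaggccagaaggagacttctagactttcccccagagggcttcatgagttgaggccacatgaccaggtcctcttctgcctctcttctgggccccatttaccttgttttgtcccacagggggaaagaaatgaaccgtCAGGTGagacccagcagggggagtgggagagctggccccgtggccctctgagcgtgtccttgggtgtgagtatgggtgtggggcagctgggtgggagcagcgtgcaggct
Tgfa: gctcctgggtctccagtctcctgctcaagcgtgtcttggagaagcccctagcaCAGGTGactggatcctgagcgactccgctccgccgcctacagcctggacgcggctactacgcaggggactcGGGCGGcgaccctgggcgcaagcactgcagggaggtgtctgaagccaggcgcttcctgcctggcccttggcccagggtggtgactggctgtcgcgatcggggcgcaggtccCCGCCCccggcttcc
Egfr: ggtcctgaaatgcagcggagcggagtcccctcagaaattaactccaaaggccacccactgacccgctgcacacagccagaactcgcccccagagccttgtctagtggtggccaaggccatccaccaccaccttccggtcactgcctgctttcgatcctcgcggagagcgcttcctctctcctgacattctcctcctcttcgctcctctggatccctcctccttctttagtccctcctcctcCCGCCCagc

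Egf and Btc, both higher, had 0 and 4 CpG dinucleotides in these windows, and Tgfa and Egfr, both lower, had 19 and 11. Areg, Erbb2 and Erbb4, none of them called, had 15, 16 and 12, so the CpG count did not set Tgfa and Egfr apart from these uncalled genes. The lower members Ereg and Hbegf had no window here. At these starts Egf and Btc had the lowest counts of the 7 members with a window, which are too few to relate CpG to the calls. The median over all 32851 windows was 6. GC content was 50.4% for Egf, 59.6% for Btc, 69.2% for Tgfa and 60.8% for Egfr, against a median of 52.4%. GC boxes stood at base -126 and base -15 of Tgfa and at base -9 of Egfr, counted from the RefSeq start, and 32.7% of all windows held this motif. The E-box letters occurred at base -197 of Tgfa and base -110 of Btc, a motif in 17.2% of windows. No motif matched in the Egf window. None of the 4 windows held the TATA box letters, which 12.4% of all windows held, and which stood at base -31 of Areg. None of the 4 held the AP-1 motif (6.75% of windows), the steroid receptor half-site (16.1%) or the CCAAT box (33.8%). Egf has another RefSeq start within the gene, whose window held 15 CpG, so the low value belongs to the outer start. These counts describe 4 windows, and what binds there was not measured.

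Egf (ENSMUSG00000028017.6, chromosome 3, 129677565 to 129755316, minus strand, mm10) encodes the founding ligand of the family, as a long membrane precursor. It had 21625 normalised counts in label-retaining and 4748 in non-retaining cells, a log2 ratio of 2.19 (95% counting interval 2.14 to 2.23). That is 4.55-fold higher, and 96.6% of measured genes had a lower ratio. Antisense genes on the other strand cover 5.38% and 4.44% of its exon length (3.42% for Ereg), and the handling of strand in the counting is not given in the sources used here.

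Btc encodes betacellulin, which binds EGFR and ERBB4. It lies on chromosome 5 (ENSMUSG00000082361.5, 91357261 to 91402994, minus strand). It had 171 reads in the label-retaining library and 32 in the non-retaining one, or 170.6 and 29.1 normalised counts. The log2 ratio was 2.53 (2.00 to 3.14), the highest of the members but with the widest interval, since it was the gene with the fewest reads in both libraries together.

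Hbegf (chromosome 18, 36504927 to 36515805, minus strand) encodes the heparin-binding ligand, which is also induced rapidly by stress. It had 19561 normalised counts in label-retaining and 40030.5 in non-retaining cells, a log2 ratio of -1.03 (-1.06 to -1.01), at the 2-fold threshold itself. With the libraries scaled on Epcam and Cdh1, both epithelial adhesion genes, it was at -0.68 and no longer called. Epcam (0.82) and Cdh1 (-0.79) themselves went in opposite directions, and Cdh1 had more reads in both libraries.

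Tgfa (chromosome 6, 86195223 to 86275719, plus strand) encodes transforming growth factor alpha, a ligand of EGFR. It had 1333 normalised counts in label-retaining and 4970.4 in non-retaining cells, a log2 ratio of -1.90 (-1.99 to -1.81), or 3.73-fold lower. Ereg (chromosome 5, 91074622 to 91093646, plus strand), which encodes epiregulin, had 60 reads in the label-retaining library and 606 in the non-retaining one. Its log2 ratio of -3.19 (-3.61 to -2.82) was the lowest of the members. Areg (chromosome 5, 91139599 to 91148432, plus strand), which encodes amphiregulin, had 278 normalised counts in label-retaining and 202 in non-retaining cells. Its log2 ratio was 0.46 (0.20 to 0.72), under 2-fold.

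The make-up of the ligand RNA within each library does not depend on how the libraries were scaled. Of all reads of the 6 ligand genes, Egf took 50.3% (exact Clopper-Pearson 95% interval 49.8 to 50.7) in the label-retaining library and 9.40% (9.16 to 9.64) in the non-retaining library. Hbegf took 45.5% (44.99 to 45.93) in the label-retaining and 79.2% (78.9 to 79.6) in the non-retaining library. Tgfa had 3.10% of the ligand reads in label-retaining cells and 9.84% in non-retaining cells, and Ereg 0.139% in label-retaining and 1.09% in non-retaining cells. Btc stayed a minor part, with 0.397% (0.339 to 0.461) in the label-retaining and 0.0576% (0.0394 to 0.0813) in the non-retaining library. Per kilobase of exon Hbegf was the leading ligand in both libraries, at 62.7% in label-retaining and 84.7% in non-retaining cells, and Egf held 29.7% in label-retaining and 4.31% in non-retaining cells. The ratio of Egf to Tgfa reads was 16.2 in the label-retaining library and 0.955 in the non-retaining library.

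**Figure D2:**
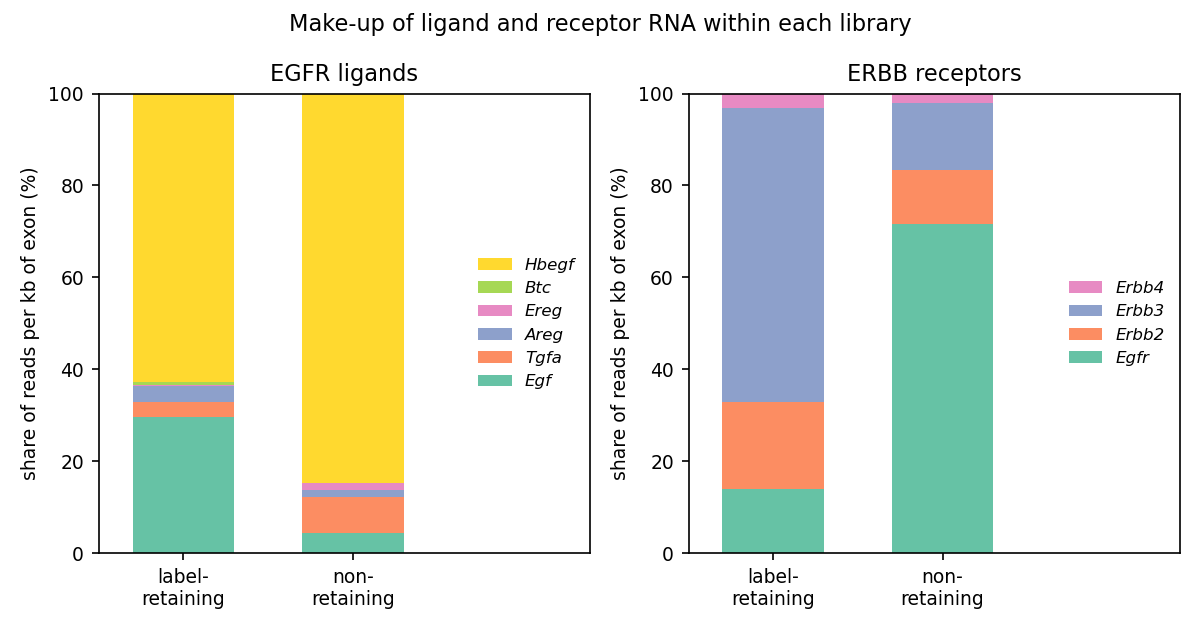
Shares (%) of each gene among the 6 EGFR ligands (left panel) and the 4 ERBB receptors (right panel), per kb of exon, with the label-retaining library as the left and the non-retaining library as the right bar of each panel. Egf takes 29.7% of the label-retaining ligand bar, against 4.31% of the non-retaining bar, and Erbb3 takes 63.9% of the label-retaining receptor bar, against 14.5%.

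The receptor genes went in opposite directions. Egfr (ENSMUSG00000020122.15, chromosome 11, 16752203 to 16918158, plus strand) encodes the receptor of all 6 ligands described here. It had 3569 normalised counts in label-retaining and 24433.5 in non-retaining cells, a log2 ratio of -2.77 (-2.83 to -2.72), or 6.84-fold lower. Erbb3 (ENSMUSG00000018166.8, chromosome 10, 128567523 to 128589652, minus strand) encodes the neuregulin receptor. It had 8702 normalised counts in label-retaining and 2629.8 in non-retaining cells, a log2 ratio of 1.73 (1.67 to 1.79), or 3.31-fold higher.

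Erbb2 (chromosome 11, 98412470 to 98437716, plus strand), the shared partner without a ligand, had 2224 normalised counts in label-retaining and 1852 in non-retaining cells, a log2 ratio of 0.26 (0.18 to 0.35). Erbb4 (chromosome 1, 68032186 to 69108059, minus strand), the other neuregulin receptor, had 911 normalised counts in label-retaining and 759.6 in non-retaining cells, at 0.26 (0.13 to 0.40). Both differed by less than 2-fold. Their intervals, and that of Areg, left out equality, which speaks of counting error only, and all 3 turned negative with scaling on Krt8 and Krt18.

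Of all reads of the 4 receptor genes, Erbb3 took 56.5% (55.7 to 57.3) in the label-retaining library and 8.86% (8.56 to 9.18) in the non-retaining library. Egfr took 23.2% (22.5 to 23.8) in label-retaining and 82.3% (81.9 to 82.7) in non-retaining cells. Per kilobase of exon the order in label-retaining cells was Erbb3 with 63.9%, Erbb2 with 18.9%, Egfr with 13.9% and Erbb4 with 3.26%. In non-retaining cells it was Egfr with 71.6%, Erbb3 with 14.5%, Erbb2 with 11.8% and Erbb4 with 2.04%. The leading receptor RNA thus differed between the libraries. The ratio of Erbb3 to Egfr reads was 22.6-fold higher in the label-retaining library. Per kilobase, Erbb3 stood at 4.59 times Egfr in label-retaining cells, and Egfr at 4.94 times Erbb3 in non-retaining cells.

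Per kilobase of exon, levels of the 10 genes can be set in order. In the label-retaining library the order was Hbegf at 4046 normalised counts per kb, Egf at 1918, Erbb3 at 1446, Erbb2 at 427, Egfr at 315, Areg at 229, Tgfa at 205, Erbb4 at 73.7, Btc at 37.8 and Ereg at 14.5. The counting intervals of neighbours overlapped there only for Areg (203 to 258) and Tgfa (195 to 217). In the non-retaining library it was Hbegf at 8281, Egfr at 2157, Tgfa at 766, Erbb3 at 437, Egf at 421, Erbb2 at 355, Areg at 166, Ereg at 134, Erbb4 at 61.5 and Btc at 6.44. The neighbours whose intervals overlapped there were Erbb3 (421 to 453) and Egf (410 to 433). Egfr was thus at rank 5 in label-retaining and rank 2 in non-retaining cells, and Egf at rank 2 in label-retaining and rank 5 in non-retaining cells. Exon length was the union of all annotated exons, so a gene with long, rarely used exons is placed too low.

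The Epgn, Ereg, Areg and Btc genes are consecutive coding genes on chromosome 5, and they did not move together. In order along the chromosome, Epgn, which encodes epigen, was at a log2 ratio of -4.32 (-4.87 to -3.85), Ereg at -3.19, Areg at 0.46 and Btc at 2.53. Their starts span 375.5 kb, with Ereg 47.2 kb, Areg 112.1 kb and Btc 375.5 kb beyond the start of Epgn. The 3 coding genes before Epgn in the same window were lower as well: the chemokine genes Cxcl1 (-2.15) and Cxcl2 (-1.34), and Mthfd2l (-1.35), which encodes an enzyme of folate metabolism. The ratio of Btc to Ereg reads was 2.85 in the label-retaining library and 0.0528 in the non-retaining one.

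**Figure D3:**
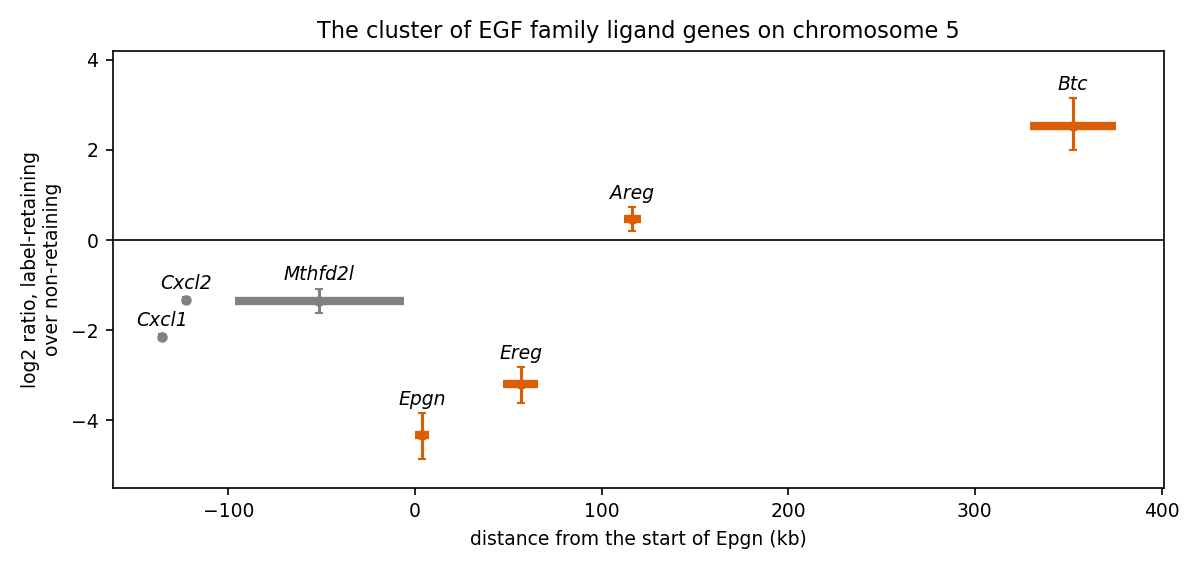
Log2 ratio (vertical axis, label-retaining over non-retaining) of the coding genes around the ligand cluster, by distance from the start of Epgn (kb). Thick bars span each gene, thin bars are 95% counting intervals, orange marks EGF family ligands and grey other genes. Epgn and Ereg lie below -3, Areg near 0 and Btc above 2.

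The other ligands of the family were mostly lower. Of 5 listed, 4 were measured, and 3 of these were lower and 0 higher (3 and 1 when scaled on Epcam and Cdh1). The shares over all measured genes were 19.4% lower and 14.5% higher as deposited, and 14.2% and 23.9% on Epcam and Cdh1. Nrg3 had no match by symbol among the gene rows, so it was not analysed here. Nrg1 and Nrg2 encode neuregulins, the ligands of ERBB3 and ERBB4. Nrg1 had 180 reads in the label-retaining library and 2211 in the non-retaining one (log2 ratio -3.48, -3.71 to -3.27). Nrg2 had 72 reads in the label-retaining library and 2302 in the non-retaining one (-4.86, -5.22 to -4.53). Epgn had 35 label-retaining and 776 non-retaining reads. Nrg4, a ligand of ERBB4, had 25 label-retaining and 16 non-retaining reads (0.76, -0.18 to 1.78), too few to tell apart at this depth. The receptor gene Erbb3 was thus higher in the label-retaining library, while both ERBB3 ligand genes in the table were lower there.

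**Figure D4:**
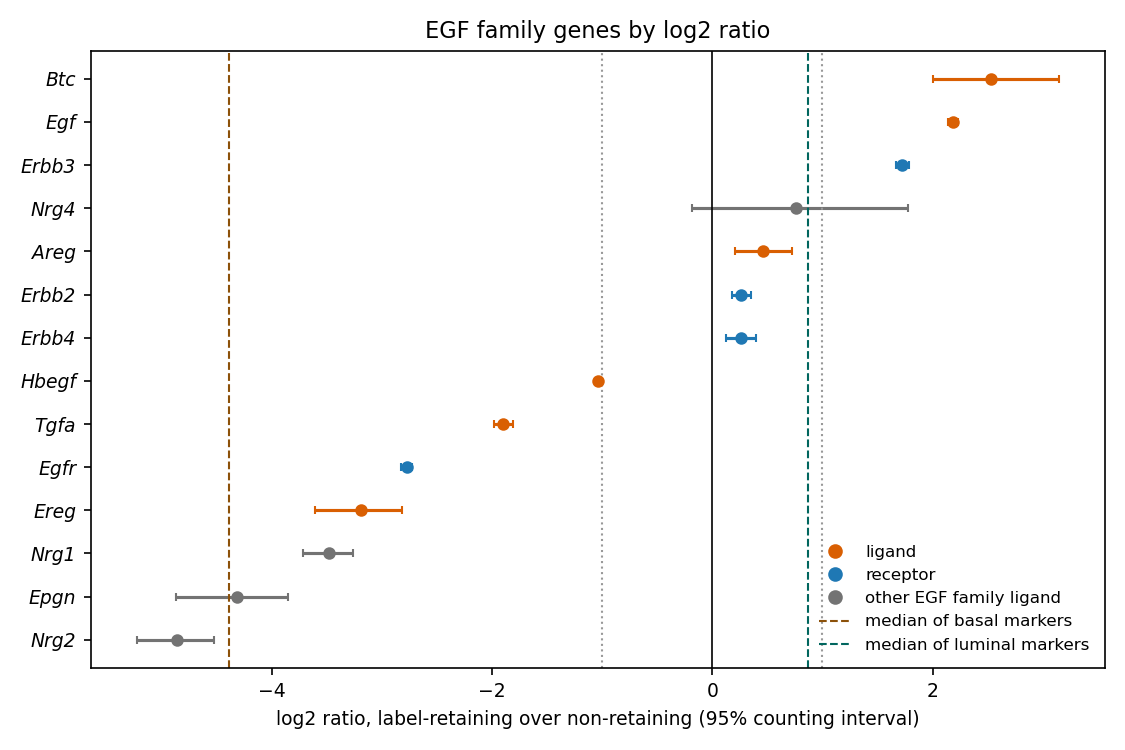
Log2 ratio (horizontal axis, label-retaining over non-retaining) with its 95% counting interval for the 10 members and 4 other ligand genes. Dotted lines mark 2-fold, and dashed lines the medians of the basal (-4.39) and luminal (0.86) marker lists. Btc, Egf and Erbb3 lie above the luminal median, and Egfr at -2.77 lies between equality and the basal median.

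The lower members went in the same direction as the basal markers, and the part of basal cells in the result was not tested. Basal markers ranged from -4.78 to -2.29, so Ereg (-3.19) and Egfr (-2.77) lay within that range and Tgfa (-1.90) and Hbegf (-1.03) above it. Smooth muscle markers ranged from -4.53 to -2.145, which also held Ereg and Egfr. Endothelial markers ranged from -3.85 to 0.13, which held Tgfa and Hbegf as well. The ratio of Egfr to Krt5 reads was 3.72 in the label-retaining library and 0.935 in the non-retaining one. Epgn, Nrg1 and Nrg2 were also within or beyond the basal range. Luminal markers ranged from -0.79 (Cdh1, the adhesion gene E-cadherin) to 2.74 (Tmprss2, a membrane protease). The 3 higher members lay inside that range, and so did the uncalled Areg, Erbb2 and Erbb4. Erbb3 had 1.82 times as many reads per Krt8 read in the label-retaining library as in the non-retaining one, and Egf 2.50 times. Leukocyte markers ranged from -8.54 (Gzmb) to 1.08 (Adgre1), leaving out Gzma, a protease gene of T and natural killer cells, which had 0 label-retaining reads. The 8 seminal vesicle secretion genes were all higher, at 0.167% of the reads in label-retaining cells and 0.0018% in non-retaining cells, and their part in the Egf and Btc values was not tested.

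Genes that release the ligands, or limit that release, were lower or under 2-fold apart as deposited. Of 11 measured, 4 were lower and 0 higher (2 and 2 when scaled on Epcam and Cdh1, 7 and 0 on Krt8 and Krt18), with a median log2 ratio of -0.57. The shares over all measured genes were 19.4% lower and 14.5% higher as deposited, 14.2% and 23.9% on Epcam and Cdh1, and 41.3% and 5.23% on Krt8 and Krt18. The lower ones were Adam8, a protease of leukocytes and activated epithelium (-4.09), Timp3, an inhibitor of the sheddases (-2.07), Rhbdf1, which encodes a rhomboid-like partner of ADAM17 (-1.08), and Adam12, from 20 label-retaining and 52 non-retaining reads (-1.22). Adam17, the main sheddase of TGF-alpha, amphiregulin and HB-EGF, had 1101 normalised counts in label-retaining and 1738 in non-retaining cells (-0.66). Adam10, which sheds EGF and betacellulin, had 4707 in label-retaining and 2529 in non-retaining cells (0.90). Neither passed 2-fold. Adam10, Adam12 and Adam17 were picked after their values were seen.

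Genes that restrain or degrade the receptors had 6 lower and 0 higher members of 20 (6 and 6 when scaled on Epcam and Cdh1, 10 and 0 on Krt8 and Krt18), with a median of 0.00070. Over all measured genes 19.4% were lower and 14.5% higher as deposited, and 14.2% and 23.9% on Epcam and Cdh1. On Krt8 and Krt18, 41.3% of all measured genes were lower and 5.23% higher, beside 10 and 0 of 20 in this list. Errfi1, which encodes MIG6, an inhibitor that binds the EGFR kinase, was the most abundant. It had 51812 normalised counts in label-retaining and 172895 in non-retaining cells (-1.74, -1.75 to -1.72). Lrig1, whose product promotes degradation of ERBB receptors and which also marks epithelial stem cells, was at -4.12 (-4.27 to -3.97). Its relative Lrig3 was at -2.18 (-2.36 to -2.01) and the cytokine feedback gene Socs3 at -2.01 (-2.08 to -1.95). The other 14 stayed under 2-fold in either direction as deposited.

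Adaptors and kinases downstream of the receptors mostly lay near equality. Of 33 measured, 5 were higher and 3 lower, and the other 25 neither (median 0.07), a share of higher genes near the 14.5% over all measured genes, where 19.4% were lower. With scaling on Krt8 and Krt18 it was 1 higher and 9 lower, where 5.23% of all measured genes were higher and 41.3% lower. The higher ones were Pik3r3 (1.88) and Pik3cb (1.74), which encode a regulatory and a catalytic subunit of PI3-kinase, Stat5a (1.69), Mapk3, which encodes ERK1 (1.27), and Araf (1.09). The lower ones were Pik3r1, the main regulatory subunit gene of PI3-kinase (-2.03), Plcg1 (-1.48) and Stat3 (-1.16). Pik3r1 had 4201 normalised counts in label-retaining and 17155 in non-retaining cells. Pik3r3 had 2576 in label-retaining and 699 in non-retaining cells, so the 2 regulatory subunit genes went in opposite directions. Stat3 and Stat5a overlap at their ends on opposite strands, and reads there are uncertain. Pik3cb, Mapk3, Araf and Plcg1 were picked after their values were seen.

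Genes known to respond to ERK signalling, or to limit it, were mostly lower. Of 22 measured, 14 were lower and 0 higher, with a median of -1.47, against 19.4% lower, 14.5% higher and a median of -0.0052 over all measured genes. Under the other scalings 13 to 17 were lower and 0 higher. The 17 came on Krt8 and Krt18, where 41.3% of all measured genes were lower. The 13 came on Epcam and Cdh1, where 14.2% were. Etv4, a transcription factor gene induced by ERK, had 58 reads in the label-retaining library and 1802 in the non-retaining one (-4.81, -5.23 to -4.45). Dusp6, the phosphatase gene that inactivates ERK, had 1896 normalised counts in label-retaining and 26945 in non-retaining cells (-3.83, -3.90 to -3.76). Spry4, a feedback inhibitor gene, was at -3.72 (-3.89 to -3.56). The most abundant, the immediate early gene Fos, was at -0.61 (-0.63 to -0.59), under 2-fold. These genes also answer FGF and other receptors, and they moved with markers of several cell types. Basal markers were lower in 12 of 12 (median -4.39) and smooth muscle markers in 8 of 8 (-2.73). Leukocyte markers were lower in 9 of 14 (median -4.02), while Lyz2 (1.03) and Adgre1 (1.08) were higher. Fibroblast markers were split, with 3 lower and 2 higher of 8 (median 0.64). The lower ones were Dcn (-4.09), Pdgfra (-4.68) and Fbln1 (-3.93), and the higher ones Lum (1.53) and Col1a1 (1.06). The part of these cells in the result was not tested.

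**Figure D5:**
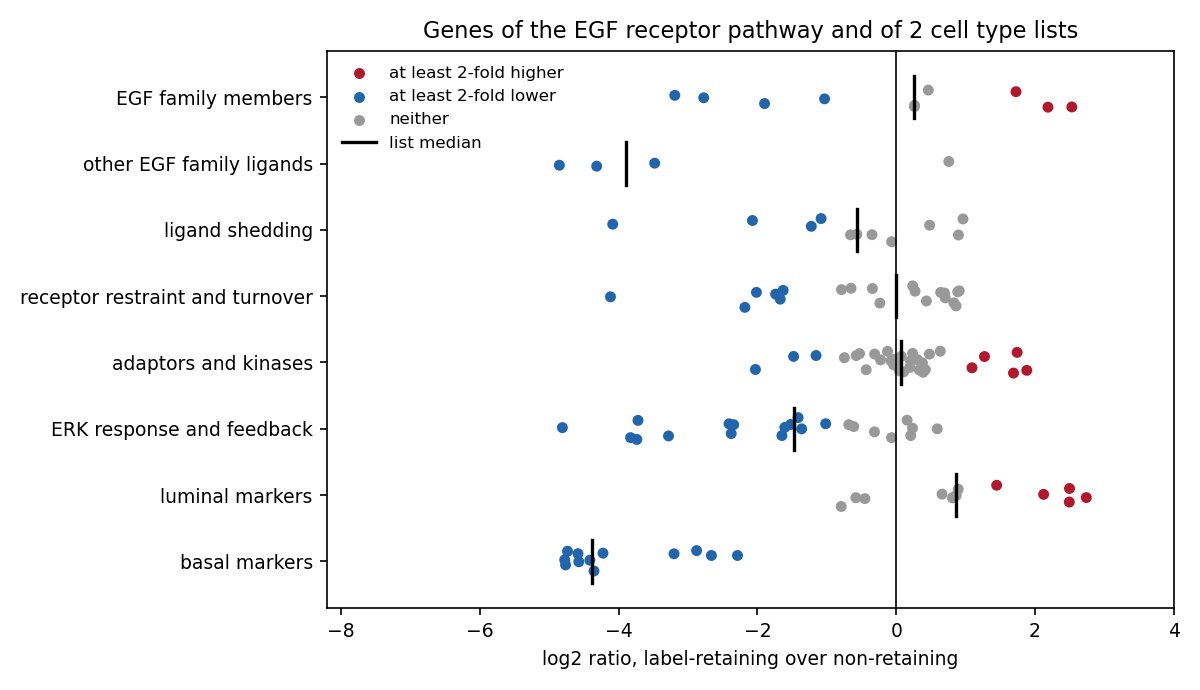
Log2 ratio (horizontal axis, label-retaining over non-retaining) of each measured gene in 6 pathway lists and 2 cell type lists. Red points were at least 2-fold higher, blue at least 2-fold lower and grey neither, and black bars are list medians. ERK response genes centre at -1.47, adaptors and kinases at 0.07 and basal markers at -4.39.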

How the data were processed

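Total RNA of 2 sorted cell populations was extracted with an RNeasy kit and libraries were prepared, per the labels' protocols, with a stranded TruSeq kit for total RNA. The deposited signal values are gene read counts that the authors divided by 1 size factor per library, as the values show: 100% of values of each column lay within 0.001 of a whole multiple of 1 step. The submitters' processing notes list mm10 with DESeq 1.16.0, HTSeq 0.6.0, Bowtie2 2.1.0, TopHat2 2.0.10 and CASAVA 1.8.2, with no roles. How strand, shared reads and overlapping genes were handled is not given in the sources used here.

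Reads were recovered by dividing by the step. Symbols were found for 18634 of 18724 identifiers, and positions and exon lengths came from GENCODE M21 (GRCm38, also called mm10). The log2 ratio used a pseudocount of 0.5 normalised counts. Its exact (Clopper-Pearson) 95% counting interval came from the share of a gene's reads in the label-retaining library (Python 3.11.15, SciPy 1.17.1). Genes with a mean of at least 10 normalised counts were measured (17183, leaving out 1541). With 1 library per group no p-value was computed. The calculation was tested on simulated counts. Levels per kb carry exact Poisson intervals.

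The members and lists were chosen with earlier results of these data known. All members and measured family ligands are named, and of each other pathway list up to 3 called genes whose interval lay farthest from equality and the most abundant one. Markers serve as context. Alternatives were other scalings (total reads, median of ratios, TMM from edgeR 4.0.16, Krt8 with Krt18, Epcam with Cdh1), a pseudocount of 5, no filter and a minimum mean of 100.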

Additional observations from a re-analysis of the deposited data

How the results depend on the processing

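Under 8 alternatives (5 scalings, a pseudocount of 5, no filter and a minimum mean of 100) the called members kept their direction wherever they were measured. Egf, Tgfa, Ereg and Egfr were called under all 8, with Egf from 1.40 to 2.54 and Egfr from -3.56 to -2.42. Erbb3 was at 0.94, no longer called, on Krt8 and Krt18, Hbegf was not called on Epcam and Cdh1 (-0.68), and Btc, with a mean of 99.9 normalised counts, dropped out at a minimum of 100. The count of higher members was thus 2 or 3 and that of lower members 3 or 4. The median over the members, 0.26 as deposited, was 0.061 with total reads, 0.28 with the median of ratios, 0.27 with TMM, 0.62 on Epcam and Cdh1, 0.26 with a pseudocount of 5 and 0.26 at a minimum of 100. It turned to -0.52 on Krt8 and Krt18, a scaling that by its construction moves every ratio down.

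The share of Btc in ligand reads was 0.585% in the label-retaining library and 0.0659% in the non-retaining one per kilobase of exon, and 0.727% in label-retaining and 0.277% in non-retaining cells without Hbegf in the denominator. The share of Egfr in receptor reads was 13.9% in the label-retaining library and 71.6% in the non-retaining one per kilobase, and 53.2% in label-retaining and 90.3% in non-retaining cells without Erbb3. No paired analysis was possible because each group had 1 library. Depth limits Btc, Nrg4 and Adam12 most.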
